A study of Mus musculus with 15 samples.

Results

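The genes of the mitochondrial genome were described in lineage-negative bone marrow cells of secondary transplant recipients. Members were all genes whose symbol begins with mt- in the GENCODE vM21 annotation of GRCm38, matched to the deposited count table by Ensembl identifier. There are 37 of them among the 45706 genes of the table, namely 13 mRNA, 2 rRNA and 22 tRNA genes, and all were found. The mRNA libraries came from 4 genotypes of transplanted LSK (Lin- Sca+ cKit+) cells in lethally irradiated CD45.1+ recipients. These were wild type (WT, n = 3), Puma-/- (n = 4), third-generation telomerase-deficient cells with intact Puma (G3 mTerc-/-Puma+/+, n = 4) and libraries labelled G3 mTerc-/-Puma-/- (n = 4), named the labelled double mutants below. Donors had been bred on C57BL/6J with the CD45.2 allele, and every library came from marrow that had passed through 2 rounds of transplantation. Lineage-negative cells were enriched on magnetic columns, and no separation of donor from residual recipient cells is described for them. Secondary recipients were killed on signs of disease or at the end of the observation time. The labels name no animal for a library, so p-values measure the spread between libraries.

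The mitochondrial genome is a small circle that is transcribed from both strands into long precursors. Cleavage at the tRNAs that lie between most genes releases the mRNAs and rRNAs, and most of the mRNAs then receive a poly(A) tail, which a poly(A)-selected library captures. Every one of the mRNAs encodes a core subunit of the oxidative phosphorylation machinery, whose remaining subunits are made from nuclear genes. Hematopoietic stem cells are known for low reliance on respiration, which rises as progenitors differentiate. PUMA itself acts at the mitochondrion, where it promotes apoptosis.

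Library totals ran from 102790519 to 158367059 counts. The transcripts of the targeted genes were examined first. Bbc3, the gene for PUMA, was at 4.80 to 7.28 CPM (raw counts scaled to the library total) in the 4 Puma-/- libraries. Its level was 9.65 to 22.1 CPM in WT, 11.7 to 20.9 CPM in G3 mTerc-/-Puma+/+ and 13.6 to 17.2 CPM in the labelled double mutants. Bbc3 was therefore low in Puma-/- but lay in the range of WT in the labelled double mutants, and the count table does not show which Puma transcript was counted there. Terc, the telomerase RNA, which lacks a poly(A) tail, was at 0.0681 CPM or more in WT, at 0.0379 CPM or more in Puma-/- and at 0.00928 CPM or less in the 8 libraries of both G3 groups. Replicate 2 of the labelled double mutants stood apart from all others. Its summed erythroid markers reached 2954 CPM (272 to 611 CPM in the other 14 libraries) and its monocyte and macrophage markers 411 CPM (1120 to 1878 CPM). It is not drawn in the heatmaps of the study, although the statement on statistics there names no exclusion. Values below come from the 14 other libraries unless 15 are named. Markers of the labelled cells were present, with Kit at 111 to 173 CPM and Cd34 at 148 to 245 CPM, while the lineage markers differed, with Itgam (CD11b, a myeloid marker) at 85.7 to 173 CPM, Cd3e at 27.2 CPM or less and Ly6g at 2.18 CPM or less.

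Sequences are shown first where they bear on what a count on a mitochondrial gene means. The nuclear genome holds a long copy of the mitochondrial genome on chromosome 1, which is annotated as pseudogenes. A megablast search of the member transcripts against all GENCODE transcripts placed 7 pseudogenes with at least 99% identity on the minus strand at chr1:24611535-24616197 of GRCm38. Over 4140 aligned bases the 7 copies differed from the mitochondrial genes at 2 positions. Both differences are shown from the start of the aligned window, 5′ to 3′ on the coding strand, with the differing base in capitals, and positions are counted from the first base of the mitochondrial gene. For mt-Co1 (chrM:6390-6423, plus strand) and its copy (chr1:24616155-24616188, minus strand) the difference is A1066T.
mt-Co1: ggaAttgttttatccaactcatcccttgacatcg
Gm29216: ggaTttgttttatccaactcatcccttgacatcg
For mt-Nd3 (chrM:9459-9491, plus strand) and its copy (chr1:24613087-24613119, minus strand) the difference is T3C.
mt-Nd3: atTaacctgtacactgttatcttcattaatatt
Gm28438: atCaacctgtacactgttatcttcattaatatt
The copies of mt-Co2 (Gm28661), mt-Atp6 (Gm10925), mt-Co3 (Gm28437), mt-Nd4l (Gm10222) and the first 876 bases of mt-Nd4 (Gm28439) are identical to the mitochondrial sequence over the aligned bases. No annotated copy of mt-Atp8 was found, but its neighbours on chromosome 1 leave 233 bases between the copies of mt-Co2 and mt-Atp6, the same as the 233 bases between them in the mitochondrial genome. The genes of 2 ATP synthase subunits also overlap each other by 43 bases, shown in capitals with 15 bases on either side (chrM:7912-7984, plus strand).
mt-Atp8 and mt-Atp6: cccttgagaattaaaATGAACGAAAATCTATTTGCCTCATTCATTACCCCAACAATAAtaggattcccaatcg
A read that falls wholly within such an overlap belongs to both genes, and gene counts from STAR leave out reads that map to more than 1 place or touch more than 1 gene.

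Assigned counts per length of the mRNAs spanned 4 orders of magnitude. The low end of that range lies in genes with near-identical copies or an overlapping neighbour, so it may not be a range of mRNA levels. Median levels over 15 libraries, as raw CPM per kilobase of gene, were 23076 for mt-Co1, the catalytic subunit of cytochrome c oxidase, and 13291 for mt-Cytb, the cytochrome b of complex III. The complex I subunit mRNAs mt-Nd1 (8399), mt-Nd2 (4006), mt-Nd4 (3879), mt-Nd5 (3589) and mt-Nd6 (3212) came next on the same scale. None of these 7 has a near-identical copy over its whole length, with 31.3% of mt-Co1 and 63.6% of mt-Nd4 copied and 0% of the others. Counts were divided by the whole gene length, copied bases included, so the levels of mt-Co1 and mt-Nd4 may be too low. The 5 mRNAs copied nearly whole (at most 3 bases outside the copy) were far lower, with median levels per length of 71.3 for mt-Co2, 38.8 for mt-Co3, 17.99 for mt-Atp6, 3.34 for mt-Nd4l and 2.73 for mt-Nd3. mt-Atp8 had the lowest median of the mRNAs, 1.64, from 16 to 58 counts in a library. On GRCm38 mt-Co1 lies at chrM:5328-6872, mt-Cytb at chrM:14145-15288, mt-Nd1 at chrM:2751-3707, mt-Nd5 at chrM:11742-13565 and both rRNA genes at chrM:70-1024 and chrM:1094-2675, all on the plus strand, while mt-Nd6 (chrM:13552-14070) lies on the minus strand. None of these genes has an intron. The lowest library of any of the first 7 mRNAs lay above the highest library of any of the other 6 on this scale.

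**Figure D1:**
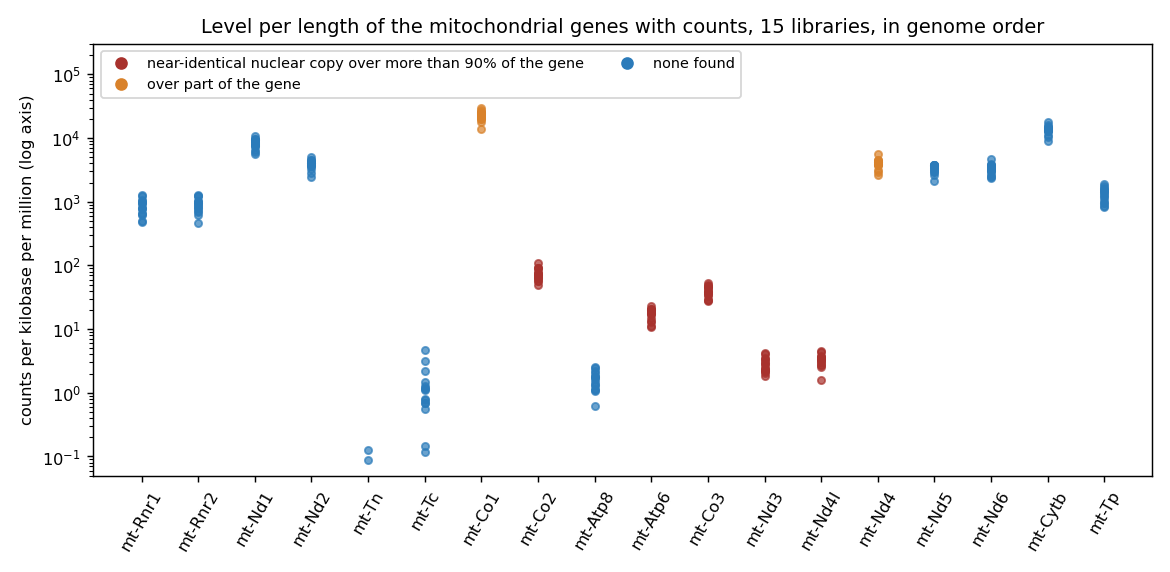
Raw CPM per kilobase of gene (log axis) for the 18 mitochondrial genes with any count, in genome order, each point 1 of 15 libraries (libraries at 0 not drawn); colours give how much of the gene has a nuclear copy of at least 99% identity. The 5 genes copied nearly whole, and mt-Atp8 between the copied genes, lie below the 7 mRNAs with median levels of 3212 or more.

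Copies and mitochondrial genes were set side by side in raw counts. In 15 of 15 libraries the copy held more counts than the gene for mt-Co2, mt-Co3, mt-Atp6, mt-Nd3 and mt-Nd4l. Gm28661 held 26062 to 50116 counts and mt-Co2 4161 to 8851, and the copy had 5.28 to 9.37 times the counts of the gene. The same ratio was 9.87 to 15.3 for Gm10925 and mt-Atp6, 3.23 to 6.09 for Gm28437 and mt-Co3 and 6.79 to 10.7 for Gm10222 and mt-Nd4l. Copies of the partly copied genes held few counts beside their genes, with at most 0.00570 times the counts of mt-Co1 on Gm29216 and at most 0.00737 times those of mt-Nd4 on Gm28439. All 7 copies together held 60084 to 118644 counts, which is 0.0474% to 0.102% of a library. Counts on the mRNAs copied nearly whole and on their copies are therefore reported as uncertain, since reads of identical sequence cannot be assigned. Those on mt-Atp8, which has no annotated copy but overlaps mt-Atp6, are also treated as uncertain.

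**Figure D2:**
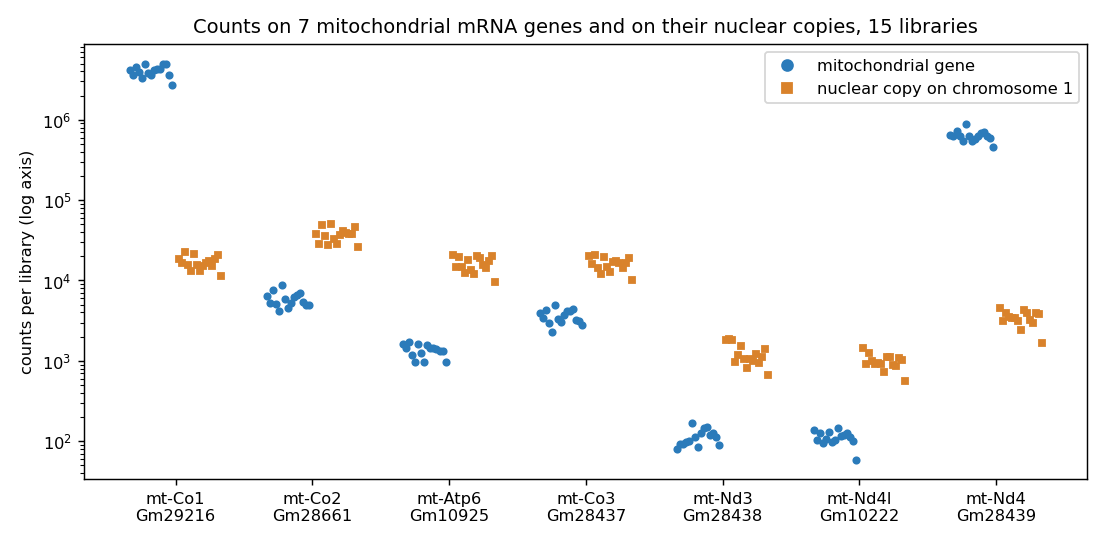
Raw counts per library (log axis) on 7 mitochondrial mRNA genes (circles) and on the nuclear copy of each on chromosome 1 (squares), 15 libraries in the order of the genotypes from left to right. The copy lies above the gene for the 5 genes copied nearly whole and far below it for mt-Co1 and mt-Nd4.

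The pair that differs by T3C had a different ratio of copy to gene in WT than elsewhere. Gm28438 held 22.6, 20.3 and 19.5 times the counts of mt-Nd3 in the 3 WT libraries. In the 12 libraries of the 3 other genotypes the same ratio was 6.90 to 12.3, so that no other library reached the WT range. For each of the 6 other pairs the ratios in WT lay within the range of the 12 other libraries. Against single genotypes WT was also apart for mt-Co1, whose log2 ratio was lower without overlap in Puma-/- (-0.193) and in G3 mTerc-/-Puma+/+ (-0.313). Both had an exact permutation p of 0.029, adjusted 0.3. The ratio for mt-Co3 was lower without overlap in G3 mTerc-/-Puma+/+ (-0.225, exact permutation p = 0.057, adjusted 0.4). For mt-Nd3 the log2 ratio was lower than in WT by 1.05 in Puma-/- (exact two-sided permutation test, p = 0.029) and by 1.35 in G3 mTerc-/-Puma+/+ (exact p = 0.029). It was lower by 1.22 in the labelled double mutants (exact p = 0.1), each p being the smallest that these group sizes allow. Adjusted over the 42 comparisons of 7 ratios, these p-values for mt-Nd3 were 0.3, 0.3 and 0.467 and none passed 0.05. The ratios were examined after the counts of the copies had been seen. mt-Nd3 itself had 81, 91 and 92 counts in WT, and Gm28438 had 1827, 1844 and 1792. Counts that low on mt-Nd3 limit what its fold changes can show.

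Counts on mitochondrial genes were nearly all on mRNAs. The mRNAs took 96.5% to 97.9% of the mitochondrial counts and both rRNAs together 2.00% to 3.36%. mt-Rnr1 (12S) had a median level of 800.1 CPM per kilobase and mt-Rnr2 (16S) of 889.9, below every one of the 7 high mRNAs. These RNAs form the core of the mitochondrial ribosome, and their counts here depend on how they were captured by poly(A) selection, which was not measured. Of the 22 tRNA genes, 19 had 0 counts in all 15 libraries. A count of 0 allows up to 3 counts, or 0.0292 CPM in the shallowest library, a limit that counting error alone sets. The 3 tRNA genes with counts lie beside stretches with no annotated gene. mt-Tn (0 to 1 counts) and mt-Tc (1 to 34 counts) flank a gap of 32 bases. Outside the control region no other gap between neighbouring genes exceeds 5 bases, and 21 of 36 neighbouring pairs touch or overlap. mt-Tp, the proline tRNA, had 6913 to 14016 counts and is the last annotated gene (chrM:15356-15422, minus strand), next to the control region, which holds no annotated gene. mt-Tf, on the other side of that region, is among the 19 tRNA genes at 0. Its sequence is shown because it is the only tRNA gene with a level to compare, 5′ to 3′ on its own strand.
mt-Tp: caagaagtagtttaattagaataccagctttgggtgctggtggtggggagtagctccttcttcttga
The median level of mt-Tp was 1338 CPM per kilobase. The strand setting of the counting is not given in the sources used here, so counts on mt-Tp and on mt-Nd6, the only mRNA encoded on the other strand, may include reads of transcripts that run across them from the opposite strand.

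The composition of the mitochondrial mRNA counts varied little. mt-Co1 took 44.2% to 50.2% of the mitochondrial mRNA counts of a library, mt-Cytb 18.6% to 21.7%, mt-Nd1 9.56% to 11.4%, mt-Nd5 7.29% to 9.12%, mt-Nd4 6.48% to 7.99%, mt-Nd2 4.997% to 5.57% and mt-Nd6 1.76% to 2.57%. These 7 mRNAs held 99.9% of the mitochondrial mRNA counts in every library. By complex, the 7 subunits of complex I took a median of 33.3% and cytochrome b of complex III 20.5%. The 3 subunits of complex IV took 46.0% and both subunits of ATP synthase 0.0156%. The ATP synthase share rests wholly on genes with uncertain counts. Complexes I and IV also include uncertain genes (mt-Nd3, mt-Nd4l, mt-Co2 and mt-Co3) and the partly copied mt-Nd4 and mt-Co1. These shares are therefore of assigned counts and may differ from those of the mRNAs themselves. Shares of the 13 mRNAs were compared between genotypes by exact two-sided permutation of the difference of means, in 78 tests. At an unadjusted p under 0.05 there were 2 differences, and after Benjamini-Hochberg adjustment 0, with a lowest adjusted p of 0.78. mt-Nd4 took 6.89% ± 0.267 of the mRNA counts for G3 mTerc-/-Puma+/+ (SD, n = 4) against 7.51% ± 0.337 for Puma-/- (n = 4; exact permutation p = 0.029). mt-Atp6 took 0.0140% ± 0.000723 in Puma-/- (n = 4) and 0.0177% ± 0.000478 in WT (n = 3; exact permutation p = 0.029). Neither difference passed the adjustment.

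**Figure D3:**
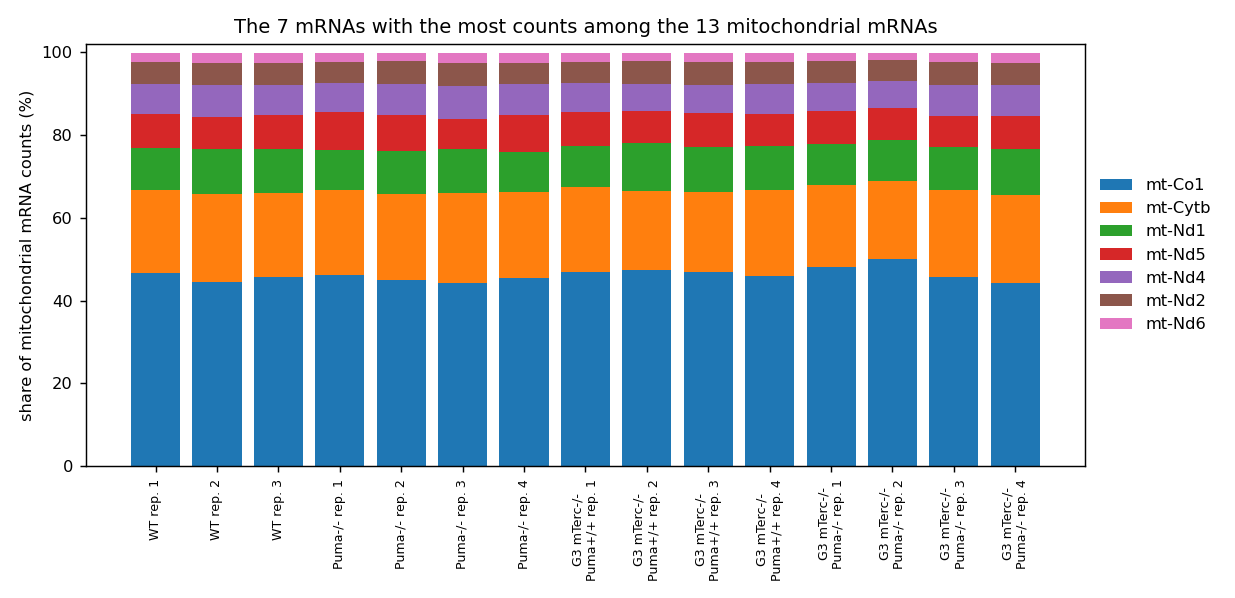
Share of the mitochondrial mRNA counts (%) of each library taken by the 7 mRNAs with the most counts, stacked, for 15 libraries. mt-Co1 forms 44.2% to 50.2% of each bar, and the order of the 7 is read from bottom to top.

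The share of all counts that fell on mitochondrial genes ranged from 4.96% to 9.92% of a library. It was 8.94%, 7.82% and 8.47% in WT and 7.62%, 7.17%, 9.92% and 8.09% in Puma-/-. G3 mTerc-/-Puma+/+ libraries had shares of 5.96%, 8.13%, 8.05% and 9.06%, and the labelled double mutants of 6.65%, 7.28% and 4.96%. The library of that group left out for standing apart had 9.32%. Without it, every labelled double mutant lay below every WT library. With it, the group overlapped all others, and its range of 4.96% to 9.32% nearly covered the range of the series. The WT mean was 8.41% ± 0.562 (SD, n = 3), the Puma-/- mean 8.20% ± 1.21 (n = 4), the G3 mTerc-/-Puma+/+ mean 7.80% ± 1.31 (n = 4) and the labelled double mutant mean 6.30% ± 1.20 (n = 3). The mean of the last group was lower than in WT by a difference of -2.11 percentage points (p = 0.1 by exact two-sided permutation, which is the lowest that 3 against 3 can give; adjusted over 6 comparisons 0.3). Against Puma-/- its difference was -1.90 (exact p = 0.0857, adjusted 0.3) and against G3 mTerc-/-Puma+/+ -1.51 (exact p = 0.171, adjusted 0.343). With 15 libraries these differences were -1.35, -1.15 and -0.749, each with an adjusted p of 0.8. Puma-/- and G3 mTerc-/-Puma+/+ differed from WT by -0.206 and -0.604 percentage points, with an adjusted p of 0.8 for both.

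**Figure D4:**
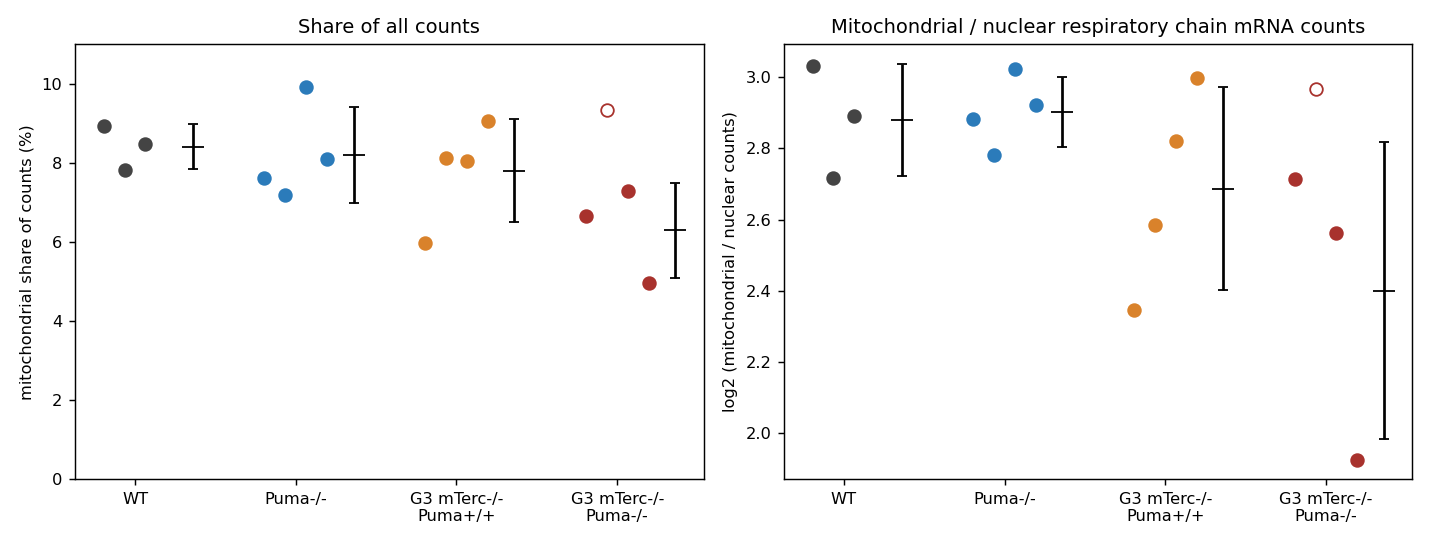
Left, share of all counts on mitochondrial genes (%); right, log2 ratio of the summed counts of the 13 mitochondrial mRNAs to those of the nuclear-encoded subunits of complexes I, III, IV and V. Points are libraries, bars mean and SD of the filled points, and the open point is replicate 2 of the labelled double mutants. In both panels the filled points of that group lie below all WT points, on the right by a very small margin. The open point lies among the WT points or above.

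The lowest shares were in the deepest libraries. The 3 libraries with the lowest shares (4.96%, 5.96% and 6.65%) were the 3 with the most counts in the series (126657004, 134106521 and 158367059 in that order), and 2 of them belong to the labelled double mutants. Among the other 12 libraries depth and share were not ordered in this way, since the lowest share of these (7.17%) came with 105447530 counts and the highest (9.92%) with 117209181. Summed mitochondrial counts themselves ran from 6279822 to 11625540. Summed erythroid markers were at 388 to 611 CPM in that group and at 297 to 364 CPM in WT, and summed B lymphoid markers at 169 to 289 CPM and 78.1 to 111 CPM. In edgeR's test against WT 0 of 13 erythroid and 0 of 10 B lymphoid markers were called, beside 0.0632% of all genes tested. At an unadjusted p under 0.05 there were 5 and 8, beside 5.45% of all genes tested. The same count was 5 of 10 neutrophil lineage, 5 of 6 megakaryocyte, 3 of 6 stromal and 1 of 8 T and NK cell markers. It was 0 for stem and progenitor, mast cell and basophil, and monocyte and macrophage markers. Megakaryocyte markers were at 135 to 187 CPM in that group, 131 to 297 CPM in WT and 363 to 555 CPM in Puma-/-, and 5 of 6 were called lower against Puma-/-, beside 0.205% of all genes tested. Xist, expressed from the inactive X chromosome, ran from 444 to 926 CPM in Puma-/- and from 0.163 to 90.1 CPM in G3 mTerc-/-Puma+/+, and Y-linked Ddx3y from 0.0190 to 0.0427 CPM and from 42.6 to 48.2 CPM. Both were mixed elsewhere. WT had Xist at 1.62 to 412 CPM with Ddx3y at 21.0 to 40.6 CPM. Replicates 1 and 4 of the labelled double mutants, with the lowest shares of their group, had Xist at 665 and 448 CPM and Ddx3y at 2.89 and 4.30 CPM, while replicate 3 had 0.393 and 46.6 CPM. The part of depth, of the sex of the cells and of these cell types in the mitochondrial share was not tested. In bulk RNA, fewer cells with many mitochondria and less mitochondrial RNA per cell cannot be told apart.

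Single genes were then tested among 18983 genes with edgeR's quasi-likelihood test, and 17 members had enough counts to enter, namely 13 mRNAs, 2 rRNAs, mt-Tp and mt-Tc. The number of members called at an adjusted p under 0.05 was 0 in each of 7 comparisons. Among all genes tested the test called 0.079% in Puma-/- against WT, 0.0369% in G3 mTerc-/-Puma+/+ against WT and 0.0632% in the labelled double mutants against WT. It called 0.801% in G3 mTerc-/-Puma+/+ against Puma-/-, 0.306% in the labelled double mutants against Puma-/-, 0.0738% in those against G3 mTerc-/-Puma+/+ and 0.0527% for the interaction of mTerc and Puma. At an unadjusted p under 0.05 the members numbered 0, 0, 9, 2, 5, 1 and 0 in that order, beside 10.1%, 3.86%, 5.45%, 17.1%, 8.42%, 6.22% and 4.93% of all genes tested. With 15 libraries they numbered 0, 0, 2, 2, 0, 0 and 0. With limma-voom no member was called in any comparison, and with DESeq2 the only call was mt-Tp in G3 mTerc-/-Puma+/+ against Puma-/-, where DESeq2 called 5.29% of all genes tested.

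The comparison of the labelled double mutants with WT gave 9 members at an unadjusted p under 0.05 with 14 libraries and 2 with 15. The 13 mRNAs had a median log2 fold change of -0.49, with 12 below 0, beside a median of 9.83e-05 over all genes tested. Members are cut from shared precursors, so in this and the other comparisons their common direction does not count as independent observations. With 15 libraries the median of the mRNAs was -0.42. mt-Rnr2, the 16S rRNA, had 1954, 1610 and 1446 normalized CPM in WT and 1250, 1092 and 724 in the labelled double mutants. These groups did not overlap, but the library left out of the group, at 1841 normalized CPM when 15 were scaled, lay within the WT range. The log2 fold change of mt-Rnr2 was -0.71 (SE 0.238, adjusted p = 0.621). mt-Rnr1 was at 918.1, 954 and 809 normalized CPM in WT and at 614, 625 and 451 in the same comparison, with a fitted log2 change of -0.67 (adjusted p = 0.743, SE 0.249). Among the complex I subunits, mt-Nd5 was at 7067, 5850 and 7102 normalized CPM in WT and at 5222, 5216 and 3750 in the labelled double mutants, a fitted log2 change of -0.50 (adjusted p = 0.698, SE 0.176). mt-Nd6 gave -0.55 (SE 0.214, adjusted p = 0.787) and mt-Atp6, a subunit of the proton channel of ATP synthase, -0.66 (SE 0.255, adjusted p = 0.764). mt-Co1 was at 40731, 33687 and 39885 normalized CPM in WT and at 30908, 31946 and 21105 in the other group, and mt-Cytb gave a similar picture, with log2 fold changes of -0.45 (SE 0.223, adjusted p = 0.942) and -0.45 (SE 0.210, adjusted p = 0.917). mt-Nd3 differed from the other mRNAs with a log2 fold change of 5.06e-05 (SE 0.313), from 81 to 170 counts in a library. Its copy Gm28438 was at -1.13 (SE 0.310) in the same comparison, so the value for mt-Nd3 depends on how reads were assigned. With 15 libraries the log2 fold changes of mt-Rnr2, mt-Rnr1, mt-Nd5 and mt-Co1 were -0.45, -0.36, -0.36 and -0.27.

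**Figure D5:**
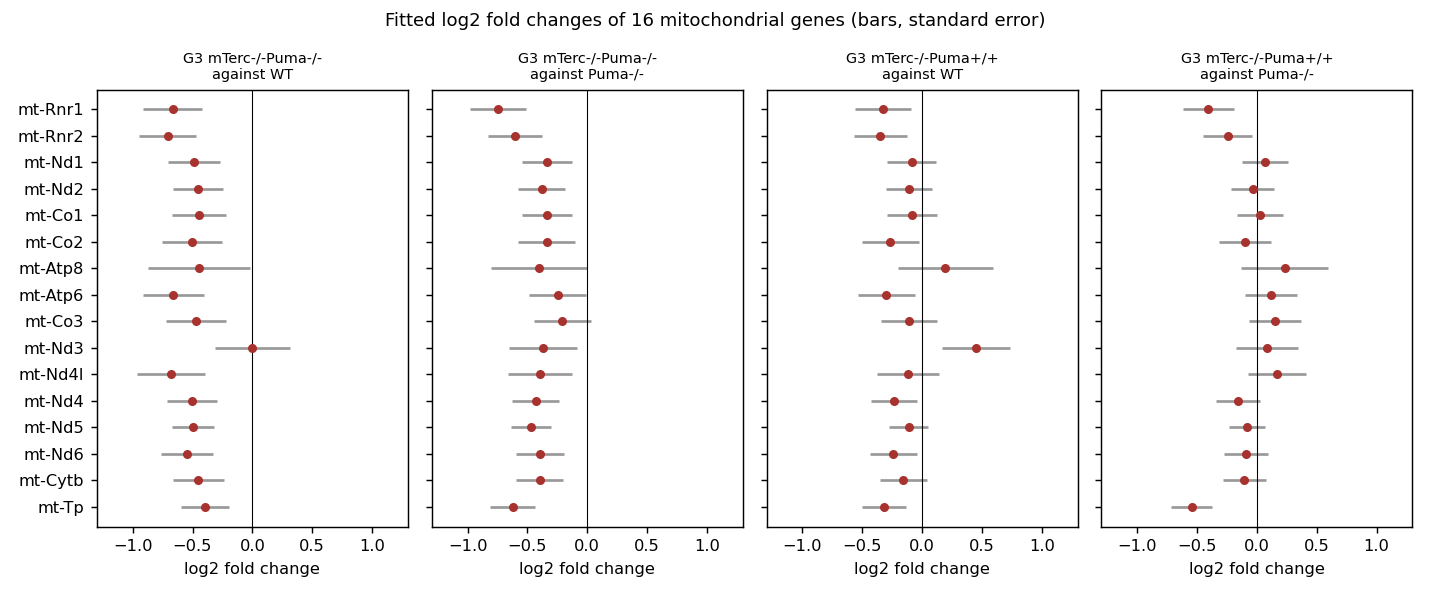
Fitted log2 fold changes (points) with standard errors (bars) of 16 mitochondrial genes in genome order for 4 of the comparisons, 14 libraries; mt-Tc, with 1 to 34 counts, is not drawn. In the first panel 12 of 13 mRNAs and both rRNAs lie below 0, in the panel of G3 mTerc-/-Puma+/+ against Puma-/- 7 lie above and 6 below 0, and no gene passed the adjusted threshold.

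Against Puma-/-, all 13 mRNAs had lower fitted values in the labelled double mutants, from -0.47 to -0.21 on the log2 scale, with a median of -0.38 that became -0.27 with 15 libraries. The lowest fitted values were those of the rRNAs and mt-Tp. mt-Tp was at 92.2, 97.5, 125 and 109 normalized CPM in Puma-/- and at 64.4, 88.2 and 54.0 in the labelled double mutants, with no overlap and a fitted log2 change of -0.62 (adjusted p = 0.291, SE 0.190). With 15 libraries its log2 fold change was -0.38 (adjusted p = 0.765), since the added library was at 119 normalized CPM. The log2 fold change of mt-Rnr1 was -0.75 (SE 0.236, adjusted p = 0.328) and that of mt-Nd5 -0.47 (SE 0.166, adjusted p = 0.416). With 15 libraries mt-Rnr1 was at -0.44 (adjusted p = 0.787) and mt-Rnr2 at -0.34 in place of -0.60. Against G3 mTerc-/-Puma+/+, the other telomerase-deficient group, the mRNAs again all had lower fitted values, with a median of -0.36 and of -0.28 with 15 libraries. mt-Nd5 was the only member there with an unadjusted p under 0.05 (log2 fold change -0.38, SE 0.165, adjusted p = 0.741). With 15 libraries it was at -0.25, and no member had an unadjusted p under 0.05. These comparisons share the labelled double mutants, so their common direction is not independent.

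Fitted differences were smaller for telomerase deficiency with intact Puma. Against WT the median log2 fold change of the 13 mRNAs was -0.11, with 11 below 0, and no member had an unadjusted p under 0.05. Against Puma-/- the median was 0.02, with 7 above and 6 below 0, and it was -0.18 with Xist as a covariate and -0.01 when scaled by library size alone. mt-Tp was the exception, at 57.2, 69.7, 69.3 and 94.1 normalized CPM in G3 mTerc-/-Puma+/+, of which only the last reached the Puma-/- range of 92.2 to 125. Its log2 fold change was -0.55 (SE 0.174, adjusted p = 0.140), and DESeq2 gave -0.54 with an adjusted p of 0.0459. mt-Tc also had an unadjusted p under 0.05, from at most 34 counts in a library. Loss of Puma alone, compared with WT, gave a median of -0.11 with 12 of 13 mRNAs below 0, and the lowest adjusted p was 0.573 for mt-Atp6 (log2 fold change -0.42, SE 0.237). The interaction asks whether the effect of telomerase deficiency differed between libraries labelled as with and without Puma. It rests on those labels, since Bbc3 lay in the range of WT in the labelled double mutants. Its median was -0.25 over the mRNAs, and its lowest adjusted p was 0.989 for mt-Nd3. With 15 libraries that median was -0.13.

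Ratios among the members were compared because they do not depend on the share of the whole. The log2 ratio of rRNA to mRNA counts averaged -5.03 ± 0.214 for WT (SD, n = 3), -4.98 ± 0.162 for Puma-/- (n = 4), -5.26 ± 0.248 for G3 mTerc-/-Puma+/+ (n = 4) and -5.26 ± 0.140 for the labelled double mutants (n = 3). Both G3 groups had the lower means, but no comparison had an adjusted p under 0.343 in the exact two-sided permutation test. The log2 ratio of mt-Nd6, from the light-strand transcript, to the other 12 mRNAs was -5.34 ± 0.123, -5.43 ± 0.137, -5.46 ± 0.0728 and -5.42 ± 0.186 in the same order, with a lowest adjusted p of 0.926 from the exact permutation test. The widest difference in the rRNA ratio was that of the labelled double mutants from Puma-/- (-0.283, exact permutation p = 0.0857, adjusted 0.343), and it was -0.179 with 15 libraries.

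Mitochondrial mRNAs were finally set against the nuclear partners of the same complexes. The 13 mRNAs held 3.80 to 8.17 counts for each count on the nuclear-encoded subunits of complexes I, III, IV and V. On the log2 scale this ratio averaged 2.88 ± 0.158 for WT (n = 3), 2.90 ± 0.0993 for Puma-/- (n = 4), 2.69 ± 0.284 for G3 mTerc-/-Puma+/+ (n = 4) and 2.40 ± 0.418 for the labelled double mutants (n = 3), each as mean and SD. The 3 libraries of the last group were all below every WT and every Puma-/- library. The margin to WT was very small, with 2.713 in replicate 1 of the labelled double mutants and 2.716 in replicate 2 of WT. Against Puma-/- the difference was -0.501 (p = 0.029 by exact two-sided permutation, the lowest possible; adjusted 0.171), and against WT it was -0.478 (exact p = 0.1, adjusted 0.3). With 15 libraries both groups overlapped it, and the differences were -0.360 and -0.337 (adjusted p = 0.514 for both). Without replicate 4 of the group they were -0.264 and -0.241.

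The nuclear genes of the same complexes had medians near 0 or above it. In the labelled double mutants against WT, the median log2 fold change was 0.02 for 36 nuclear subunits of complex I (24 above 0), 0.02 for 9 of complex III (6 above 0), 0.00 for 12 of complex IV (8 above 0) and -0.01 for 18 of ATP synthase (7 above 0). Of 77 mitochondrial ribosomal protein genes, 63 lay above 0, with a median of 0.05. No gene of these lists, nor of the lists of mitochondrial transcription, RNA processing, DNA maintenance and stress response, was called in any comparison. Among all genes tested the share called was 0.0369% to 0.801% over these comparisons, so lists of this size would hold few calls. Against Puma-/- the labelled double mutants had 33 of 36 nuclear complex I genes and 18 of 18 ATP synthase genes above 0 (medians 0.09 and 0.15), where the mitochondrial mRNAs were all below 0. Puma-/- itself lay mostly below WT in these lists, with 7 of 36 and 0 of 18 above 0 (medians -0.07 and -0.15). The widest shift of the nuclear lists was in G3 mTerc-/-Puma+/+ against Puma-/-, where 73 of 77 ribosomal protein genes (median 0.18), 35 of 36 complex I genes (0.13) and 15 of 15 stress response genes (0.24) lay above 0, beside a median of -0.000489 over all genes tested. These groups were also apart in Xist and Ddx3y, and the part of sex in the shift was not tested. The shift holds differences of both groups from WT. Against WT, Puma-/- had 10 of 77 ribosomal protein and 2 of 15 stress response genes above 0 (medians -0.07 and -0.18). G3 mTerc-/-Puma+/+ had 76 of 77 and 11 of 15 above 0 against WT (medians 0.11 and 0.13). Summed stress response genes in G3 mTerc-/-Puma+/+ ran from 1805 to 2555 CPM, with a mean of 2021, and averaged 1854 CPM in WT.

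The machinery that makes and matures mitochondrial RNA was examined gene by gene. Polrmt encodes the mitochondrial RNA polymerase, and its log2 fold change in the labelled double mutants against WT was -0.04 (SE 0.108). Tfam, which packages mitochondrial DNA and starts transcription, gave 0.06 (SE 0.0895), and Lrpprc, which stabilizes the mRNAs, 0.00 (SE 0.0894). Polg, the replicative polymerase, gave -0.06 (SE 0.0855) and Twnk, the helicase, -0.01 (SE 0.0943). In G3 mTerc-/-Puma+/+ against Puma-/-, 25 of 29 genes of RNA processing and stability lay above 0, with a median of 0.15, among them the ribonuclease subunit gene Pnpt1 (0.37, SE 0.108, adjusted p = 0.109 from edgeR) and Mtpap, the mitochondrial poly(A) polymerase (0.23, SE 0.0731, adjusted p = 0.145). None of these differences passed the threshold.

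The same few libraries held the extremes of most members. Of the 13 mRNAs, 10 were highest in replicate 3 of Puma-/- and 9 lowest in replicate 4 of the labelled double mutants. Between the highest and lowest of 14 libraries, normalized levels differed by 1.95-fold for mt-Nd5, 2.10-fold for mt-Co1 and 2.13-fold for mt-Cytb, and by 2.83-fold for mt-Rnr1 and 2.88-fold for mt-Rnr2. Puma-/- alone spanned 29042 to 44356 normalized CPM of mt-Co1, a range that held 3 of 3 WT libraries, 3 of 4 G3 mTerc-/-Puma+/+ libraries and 2 of 3 labelled double mutants.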

How the data were processed

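Poly(A)-selected, stranded libraries of lineage-negative marrow cells were sequenced in pairs. The authors trimmed reads with Trimmomatic 0.38 and counted them per gene with STAR 2.5.2b on GRCm38, and the deposited values are raw counts. The annotation release and strand setting are not given in the sources used here. Libraries were grouped by their labels, and 563 identifiers had no GENCODE vM21 symbol.

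Counts of 14 libraries were normalized by TMM (factors 0.926 to 1.07) and tested with edgeR 4.0.16 (filterByExpr, quasi-likelihood, Benjamini-Hochberg, threshold 0.05) in R 4.3.3, for 6 pairs of genotypes and the interaction. Alternatives included 15 libraries, other scalings and filters, DESeq2 1.42.0 and limma 3.58.1 (voom). Shares and ratios used raw counts and exact two-sided permutation of the difference of means. Level per length is raw CPM per kilobase of gene. Nuclear copies came from megablast (at least 85% identity over 150 bases). The fits were tested on simulated counts. Genes named were all mRNAs and rRNAs, the tRNAs with the most counts and called genes of the lists. The members, lists and naming rule were chosen with earlier results of these data known. Genes of the nuclear lists named with values were chosen for their known roles, or after their values were seen (Pnpt1 and Mtpap).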

Additional observations from a re-analysis of the deposited data

Results flagged for a closer look

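In 63 groups of 4 libraries (4 shares and ratios and 17 genes), the most distant library was compared with the other 3, a check that flags about 1 in 20 groups by chance. It singled out 2 values. The log2 ratio of mt-Nd6 to the other mitochondrial mRNAs was -5.57 in replicate 2 of G3 mTerc-/-Puma+/+, where the other 3 libraries lay between -5.44 and -5.41. mt-Co3 was at 21.97 normalized CPM in the labelled double mutant replicate 4, where the other 3 lay between 27.5 and 28.2. That library was also the lowest in mitochondrial share.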

How the results depend on the processing

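In all, 1079 recomputed values counted as unchanged. For shares, ratios and fold changes of single genes this meant the same direction and side of the threshold. Medians of the mRNAs counted as unchanged when they moved by less than 0.284, their spread within genotypes, whatever their sign. The median in G3 mTerc-/-Puma+/+ against Puma-/- changed sign in this way, from -0.0690 to 0.162 on leaving out 1 library. The remainder are given here, and the cause was not tested for any. With 15 libraries 3 differences in log2 ratios changed sign. They were rRNA to mRNA in the labelled double mutants against G3 mTerc-/-Puma+/+ (0.0983), and mt-Nd6 to other mRNAs in the labelled double mutants against Puma-/- (-0.0884) and against G3 mTerc-/-Puma+/+ (-0.0523). DESeq2 called 1 member, mt-Tp in G3 mTerc-/-Puma+/+ against Puma-/- (log2 fold change -0.54, adjusted p = 0.0459), whose adjusted p was 0.0459 to 0.325 over all alternatives. No other alternative called a member.

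Leaving out 1 library at a time turned the sign of differences that were small beside the spread between libraries. The share of counts ranged from -0.779 to 0.136 percentage points in Puma-/- against WT, from -1.02 to 0.0103 in G3 mTerc-/-Puma+/+ against WT and from -0.818 to 0.216 in G3 mTerc-/-Puma+/+ against Puma-/-. The rRNA to mRNA log2 ratio ranged from -0.0769 to 0.122 in Puma-/- against WT and from -0.125 to 0.0672 in the labelled double mutants against G3 mTerc-/-Puma+/+. The mt-Nd6 log2 ratio ranged from -0.161 to 0.0209 in the labelled double mutants against WT, from -0.0740 to 0.108 against Puma-/-, from -0.0379 to 0.144 against G3 mTerc-/-Puma+/+, and from -0.0817 to 0.0201 in G3 mTerc-/-Puma+/+ against Puma-/-. The mitochondrial to nuclear log2 ratio ranged from -0.0589 to 0.0987 in Puma-/- against WT. The share of the labelled double mutants stayed below WT whichever of the 14 libraries was left out (-2.60 to -1.44). Replicate 2 of that group was outside all of these runs. Its share of 9.32% lay above every WT library, and with it the difference was -1.35 (exact permutation, adjusted p = 0.8).

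Replicate numbers do not pair the libraries. Of 18 same-numbered pairs, 3 had correlated deviations above 0.1 (range -0.253 to 0.175). With the replicate block 0 members were called, and the median of the mRNAs in the labelled double mutants against WT was -0.51. With Xist as a covariate that median was -0.49, while in G3 mTerc-/-Puma+/+ against Puma-/- it was -0.18 in place of 0.02. Over all genes, G3 mTerc-/-Puma+/+ against Puma-/- gave 152 calls, 43 with the block, 24 with 15 libraries, 16 with Xist as a covariate and 1004 with DESeq2. Scaling 15 libraries on genes outside the mitochondrial genome was chosen after seeing the data and called no member. Low counts limit mt-Atp8, mt-Nd3, mt-Nd4l and mt-Tc, with at most 170 counts in a library.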

Other observations

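The ratio of nuclear copy to mitochondrial gene at mt-Nd3 separated the WT libraries from the rest, with 19.5 to 22.6 in 3 of 3 WT libraries and 6.90 to 12.3 in the 12 others. In edgeR's test over all genes, Gm28438 itself had log2 fold changes of -0.70 in Puma-/- (SE 0.285, adjusted p = 0.452), -0.92 in G3 mTerc-/-Puma+/+ (SE 0.285, adjusted p = 0.980) and -1.13 in the labelled double mutants (SE 0.310, adjusted p = 0.463), each against WT, so that it was not called. Among less similar copies elsewhere there were 5816 to 11718 counts on Gm13340, a copy of mt-Co1 at 97.6% identity on chromosome 2, and 4 to 15 on Gm11410, a copy of mt-Cytb at 92.9% identity on chromosome 4.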
